A study of Mus musculus with 16 samples.

Results

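The genes described here are 55 writers and erasers of histone methylation, the enzymes (and some partner subunits) that place or remove methyl groups on the lysines and arginines of histones. They were chosen by name, as the rows of the deposited table of all genes whose symbol is on a list of 55, and all 55 were among its 25905 genes. Retinas came from the right eyes of male wild type C57BL/6 mice, 8 flown on the International Space Station (spaceflight) and 8 kept on the ground in matched housing (ground control). The labelled age of 10 weeks is, by the study's methods, the age at the start of the flight, and the eyes were taken some weeks later, after the return of the flown mice to Earth. A stranded RNA sequencing library was made from the total RNA of each retina. The columns of counts per library carry codes that are not among the sample labels, so no library could be placed in a group here. The question the design asks, whether these genes differ between spaceflight and ground control, was therefore not tested. What follows describes the level of each gene over all 16 libraries as 1 value, the authors' mean of the counts after division by each library's size factor. This mean normalized count has no spread between libraries, and the depth of single libraries was not used, so a small gap between genes cannot be weighed against replicate error.

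A methyl mark on a histone tail is read according to which residue carries it. Methylation of lysine 4 of histone H3 (H3K4) is found at active promoters and enhancers, and that of H3K36 and H3K79 along transcribed genes. The higher methylated states of H3K9, H3K27 and H4K20 are found in silenced chromatin. Writers of lysine methylation mostly share a catalytic SET domain, while erasers use either a JmjC domain or, in the Kdm1 proteins, an amine oxidase. In the retina, rod nuclei of the mouse are known for heterochromatin packed in the nuclear centre, and Polycomb genes for their part in the division of retinal progenitors.

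The libraries had the levels of a neural retina. The mean normalized count was 154477 for rod transducin (Gnat1) and 29757 for rod arrestin (Sag). The 4 proliferation markers (Mki67, Top2a, Ccnb1, Cdk1) lay between 1.14 and 3.36. Genes listed as markers of neighbouring tissue were present, with 540 for Ttr, 121 for Rpe65, 93.0 for Lrat and 2.72 for Best1 of the pigment epithelium. The 4 lens genes ran from 49.1 (Mip) to 898 (Cryaa). Whether these transcripts came from neighbouring tissue or from the retina itself was not tested, nor was the part of such tissue in the levels below.

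Of the 55 genes, 44 (80.0%) had a mean normalized count of 10 or more, against 12374 (47.8%) of all genes in the table. Ranked among those 12374 genes by level, not per length, the 44 had a median percentile of 82.6, and 36 of them lay above the median gene. The 11 below were Ezh2, Suz12, Suv39h2, Ehmt1, Ehmt2, Setdb1, Kdm3a, Kdm2b, Suv420h2, Carm1 and Prmt2. They hold 4 of the 6 H3K9 writers and the catalytic subunit Ezh2 and core subunit Suz12 of Polycomb repressive complex 2 (PRC2), the H3K27 writer. These 11 had a property in common that the choice of genes did not use. The deposited count table lists transcript accessions, and every one of the 11 was counted under 2 or more of them. All 37 genes counted under 1 accession reached 10, the lowest being Kdm4d at 26.0, whereas 7 of the 18 genes counted under 2 or more did so (38.9%). The same direction was seen over the whole table, where 51.7% of the 22086 genes with 1 accession and 24.6% of the 3794 with more reached 10. The median level was 12.9 in the first class and 0.806 in the second.

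**Figure D1:**
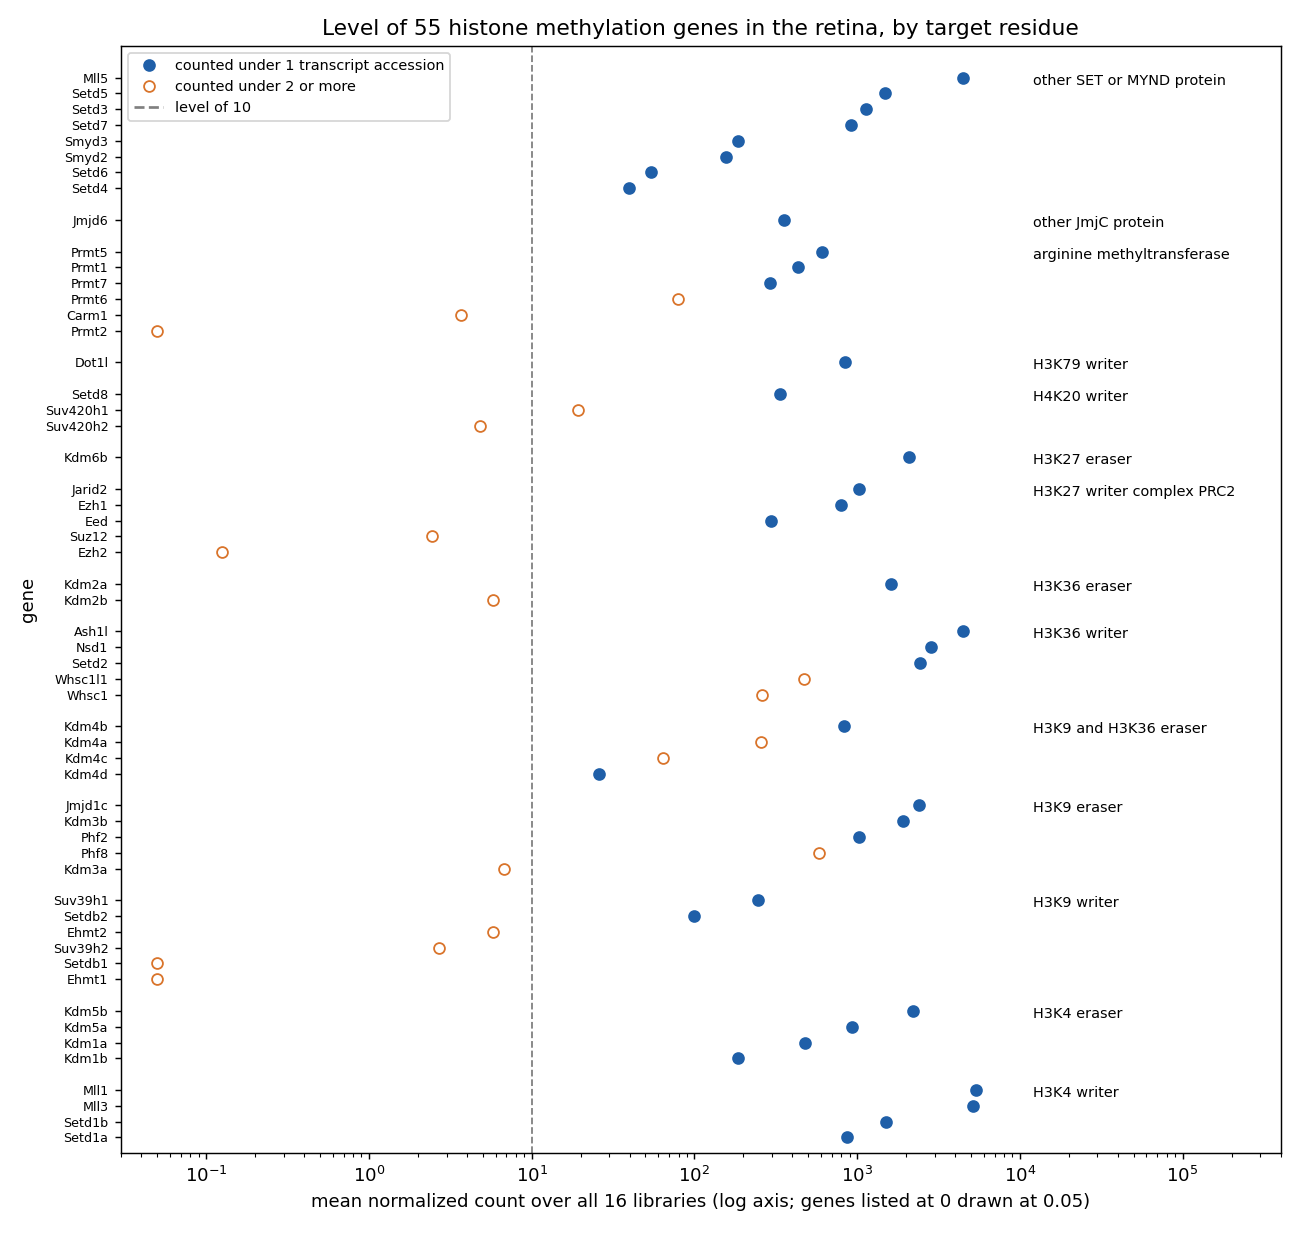
Mean normalized count over all 16 libraries (log axis) for each of the 55 genes, grouped by target residue; filled points are genes counted under 1 transcript accession, open points those under 2 or more, the dashed line is a level of 10, and genes listed at 0 are drawn at the left edge. All 11 points left of the line are open, and all 37 filled points lie right of it.

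**Figure D2:**
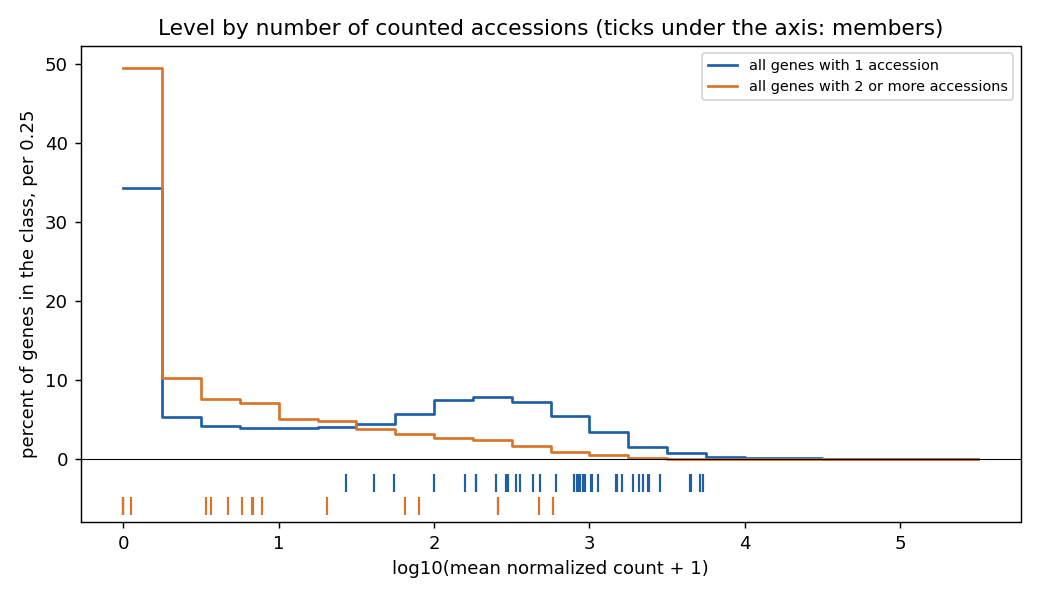
Percent of genes in each 0.25-wide step of log10(mean normalized count + 1), for all genes with 1 accession and all genes with 2 or more; ticks under the axis mark the 55 genes in the same colours. The 37 ticks of the first class begin at the level of Kdm4d (26.0), while 11 of the 18 in the second lie below 10.

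For genes with more than 1 accession, the bases held by only 1 of the counted transcripts were taken from the exons of GENCODE M21 (GRCm38). By default the counter HTSeq, which the authors used, sets aside a read that overlaps more than 1 counted feature, as a read in bases shared by several listed transcripts does. Neither the counting mode nor the way rows of one gene were joined is given in the sources used here, and whether this sets the low levels was not tested. All accessions could be matched for 15 of the 18 genes. The stretches are shown for Ezh2, Suz12, Carm1 and Ehmt2 because the paired transcripts of these genes share most of their bases. For Ezh2, Suz12 and Carm1 every wholly coding stretch is given, and for Ehmt2 only the longest of its wholly coding stretches, beside which the gene has a coding stretch of 42 bases and one of 216 bases that is part untranslated. Capitals mark the coding bases held by 1 accession only, with 15 bases of the same transcript on either side in lower case, written 5′ to 3′ on the gene's strand.
Ezh2 (chr6:47551717-47551731, minus strand, 15 bases): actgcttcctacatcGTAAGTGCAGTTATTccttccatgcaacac
Ezh2 (chr6:47576536-47576562, minus strand, 27 bases): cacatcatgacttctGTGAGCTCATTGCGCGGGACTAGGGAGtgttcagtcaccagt
Suz12 (chr11:79999057-79999125, plus strand, 69 bases): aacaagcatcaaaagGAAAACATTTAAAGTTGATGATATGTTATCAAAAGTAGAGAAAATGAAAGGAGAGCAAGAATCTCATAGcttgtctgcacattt
Carm1 (chr9:21587851-21587919, plus strand, 69 bases): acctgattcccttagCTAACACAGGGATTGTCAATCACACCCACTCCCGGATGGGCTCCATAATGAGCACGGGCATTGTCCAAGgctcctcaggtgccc
Ehmt2 (chr17:34905610-34905711, plus strand, 102 bases): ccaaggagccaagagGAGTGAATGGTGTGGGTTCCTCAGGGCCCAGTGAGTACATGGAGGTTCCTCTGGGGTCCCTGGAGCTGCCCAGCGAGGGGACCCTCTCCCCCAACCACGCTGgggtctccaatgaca

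The pair of Ezh2 stretches is all that separates its transcripts, 42 bases or 1.5% of the exon bases of the gene, and its level was 0.125. In Suz12 the 69-base stretch and a single base of the 3′ end make 70 bases (1.60%), and the level was 2.43. Carm1, the arginine methyltransferase that works as a coactivator, had 108 such bases (3.33%) and a level of 3.70. Ehmt2, also known as G9a, had 364 (8.95%) and a level of 5.78.

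Over the 15 genes, those with more such bases tended to have the higher levels, but the order was not strict. Prmt2 had no base held by 1 accession and was listed at 0. The 5 genes with 1 to 149 such bases (Setdb1, Ezh2, Suz12, Carm1, Suv420h2) had levels of 0 to 4.81. The 5 with at least 1500 (Kdm4a, Suv420h1, Phf8, Whsc1, Whsc1l1) had levels of 19.3 to 580, and all 5 reached 10. Ehmt1, the partner of Ehmt2 in the writer of H3K9 dimethylation, was listed at 0 with 1238 bases, and Kdm4c had 64.0 with 295. Suv420h1 had 19.3 with 2572 bases, below Kdm4c and below Kdm4a (257 with 2064), and Whsc1 had 259 with 8133, below Phf8 (580 with 3691). The same bins over all 2811 matched genes with more than 1 accession gave the same order from the second bin on. Of the 495 genes with 1 to 149 bases, 2.22% reached 10, and the share was 13.7% of 706 genes at 150 to 499 bases, 33.1% of 628 at 500 to 1499 and 60.4% of 739 at 1500 or more. Genes with no such base at all were 243, and 12.8% of them reached 10.

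**Figure D3:**
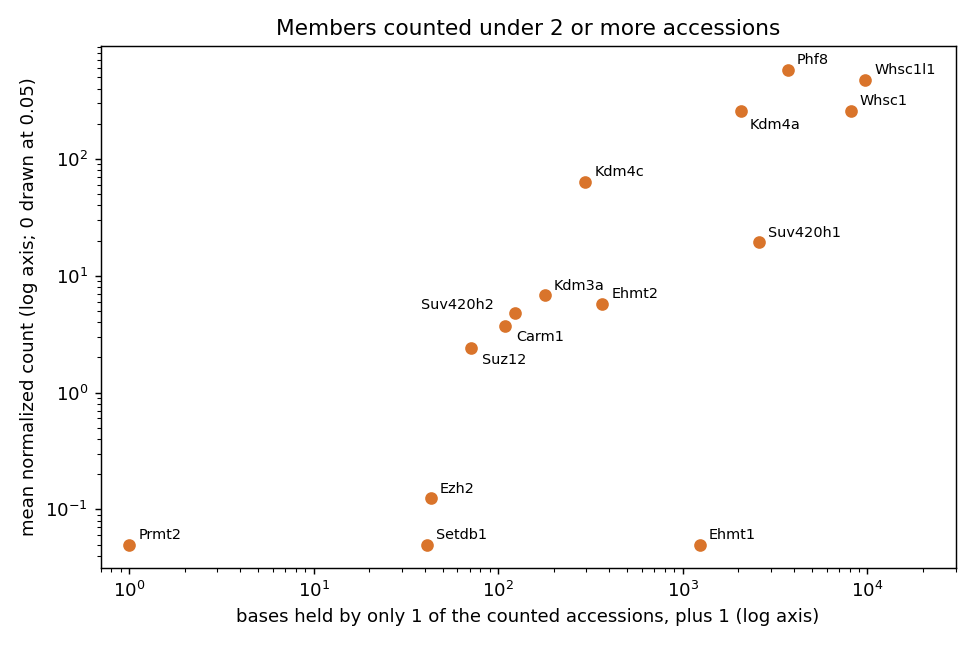
Mean normalized count (log axis, genes listed at 0 drawn at the bottom) against the number of bases held by only 1 of the counted accessions, plus 1 (log axis), for the 15 genes with more than 1 accession whose accessions were all matched. Points run from Prmt2 (0 bases) to Phf8 at 580 and Whsc1l1 at 475 with no strict order; Ehmt1 (0 with 1238 bases), Suv420h1 (19.3 with 2572) and Kdm4c (64.0 with 295) are among those out of order.

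Levels of different genes were compared per kb of the longest matched transcript, and only among genes counted under 1 accession. A length was found for 35 of these 37 genes. Their median was 190 normalized counts per kb, against 73.8 over the 10275 genes of the table with 1 accession, a length and a level of 10 or more, and 30 of the 35 lay above that value. Their transcripts were also long, with a median of 5494 bases against 3066. Erasers and writers of lysine methylation spanned overlapping ranges per kb, with a median of 188 for 11 erasers (9.66 to 315) and 197 for 12 writers or PRC2 subunits (79.5 to 396).

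**Figure D4:**
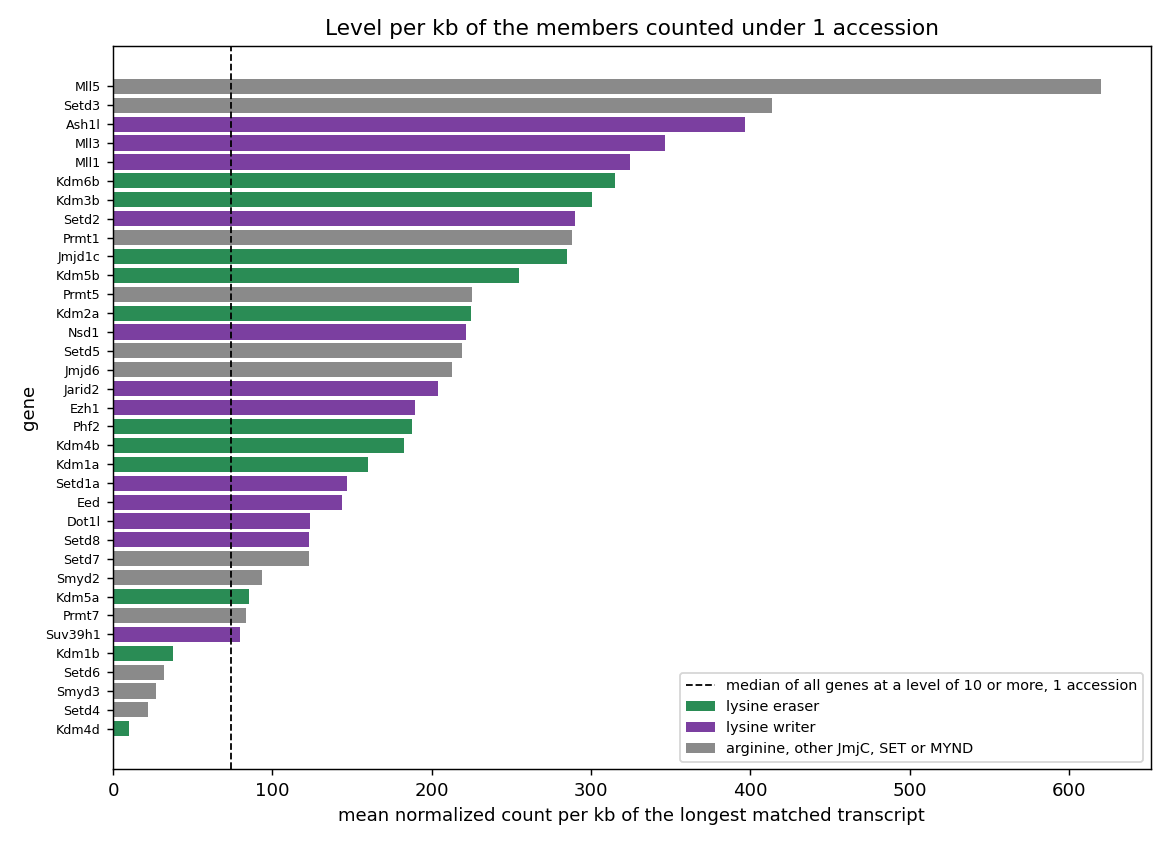
Mean normalized count per kb of the longest matched transcript for the 35 genes counted under 1 accession, coloured by role; the dashed line is the median of all such genes at a level of 10 or more (73.8). Bars run from 9.66 for Kdm4d to 620 for Mll5, and 5 of the 35 stop short of the line.

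The H3K4 genes were all counted under 1 accession and all well above 10. Mll1 (now Kmt2a) and Mll3 (Kmt2c), the large SET proteins of the trithorax type, had mean normalized counts of 5345 and 5186, or 325 and 347 per kb. Setd1a, a catalytic subunit of the complexes that place most H3K4 trimethylation at promoters, had 870 (147 per kb), and its relative Setd1b had 1503 with no matched length. Among the erasers, Kdm5b was highest at 2218 (255 per kb) and Kdm5a had 934 (85.3 per kb); both remove the trimethylated state. Kdm1a (LSD1), the amine oxidase that removes the lower methylated states, had 482 (160 per kb), and Kdm1b had 186 (37.3 per kb), the lowest of the H3K4 genes per kb.

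Of the 6 H3K9 writers, 4 were below 10, and these same 4 were counted under more than 1 accession. Ehmt1 and Setdb1 were listed at 0, with 4 and 3 accessions. Suv39h2, which trimethylates H3K9 in pericentric heterochromatin, had 2.69, and its paralog Suv39h1, under 1 accession, had 248 (79.5 per kb). Setdb2 had 98.9 with no matched length. Setdb1, the writer of H3K9 trimethylation at silenced retroelements, has 40 bases (0.858%) held by 1 accession, and Ehmt1 has 1238 (20.8%).

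The 3 H3K9 erasers with 1 accession all lay above the median gene per kb. Jmjd1c had 2387 (285 per kb), Kdm3b 1913 (301 per kb) and Phf2 1032 (188 per kb). Kdm3a, the close paralog of Kdm3b and a remover of the lower methylated states of H3K9, had 6.79, with 2 accessions that differ over 177 bases, all in untranslated parts. Phf8, an X-linked eraser with a PHD finger, had 580 under 2 accessions that share fewer bases (3691, or 53.6%, held once). In the Kdm4 family, Kdm4a, Kdm4b and Kdm4c act on H3K9 and H3K36, and Kdm4d, the short member without PHD and Tudor domains, acts on H3K9. Kdm4b had 836 (183 per kb) and Kdm4d had 26.0 (9.66 per kb, the lowest of the 35). Kdm4a had 257 and Kdm4c 64.0 under 2 accessions each. Divided by only the bases held once, the levels were 124 per kb of such bases for Kdm4a, 217 for Kdm4c, 157 for Phf8 and 38.4 for Kdm3a. The other genes with such bases ran from 0 (Ehmt1, Setdb1) and 2.97 (Ezh2) to 48.8 (Whsc1l1). Some of the stretches are short (15 and 27 bases in Ezh2), and a sequenced read can reach past them. The bases held once are therefore not the length over which reads were counted, and what set these gaps was not tested.

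All 5 writers of H3K36 methylation were above 10, and the 3 with 1 accession lay above the median gene per kb. Ash1l had 4466 (396 per kb, the third of the 35), Nsd1 2828 (221 per kb) and Setd2, which trimethylates H3K36 behind elongating RNA polymerase II, 2419 (290 per kb). Whsc1 (Nsd2) and Whsc1l1 (Nsd3), the other members of the Nsd family, had 259 and 475 under 3 and 2 accessions. Of the H3K36 erasers, Kdm2a had 1625 (224 per kb) and its paralog Kdm2b, under 3 accessions, had 5.79.

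The 5 PRC2 genes among the writers and erasers split by accession number. Ezh1, the catalytic subunit that prevails in non-dividing cells, had 795 (190 per kb), Jarid2, an accessory subunit, had 1022 (204 per kb) and Eed, which binds the trimethylated mark, had 297 (143 per kb). Ezh2 and Suz12, with 0.125 and 2.43 under 2 accessions each, were not compared with them per kb. The split was not strict among the PRC2 subunits on the list of other pathway genes. Of the 5 counted there under 1 accession, 4 reached 10 and Phf19 did not (5.28). Aebp2 had 236 under 3 accessions. Kdm6b, an eraser of H3K27 methylation, had 2098 (315 per kb, the highest per kb of the 11 erasers with 1 accession). Its paralog Kdm6a, from the list of other pathway genes, had 452 (76.2 per kb).

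For H4K20, Setd8 (Kmt5a), which adds the first methyl group, had 338 (123 per kb). Suv420h1 (Kmt5b), which adds further groups, had 19.3 under 7 accessions and Suv420h2 (Kmt5c) had 4.81 under 2. Dot1l, the H3K79 methyltransferase, had 843 (124 per kb). Among the arginine methyltransferases, Prmt5, the main source of symmetric dimethylation, had 606 (225 per kb), Prmt1, the main source of asymmetric dimethylation, had 435 (288 per kb) and Prmt7 had 290 (83.7 per kb). Prmt6 had 79.4 under 2 accessions. The JmjC protein Jmjd6 had 354 (212 per kb).

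The 8 remaining SET or MYND proteins, several with substrates other than histones, were all counted under 1 accession. Mll5 (Kmt2e), a reader of H3K4 methylation, had 4497 and the highest value per kb of the 35 at 620. Setd3, which methylates a histidine of actin, followed with 1140 (414 per kb). Setd5 had 1480 (219 per kb) and Setd7, which adds a single methyl group to H3K4 and to other proteins, had 913 (123 per kb). Smyd2 had 157 (93.7 per kb), Smyd3 185 (26.9 per kb), Setd6 54.3 (31.8 per kb) and Setd4 39.8 (21.8 per kb).

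The CG content of promoters overlapped between the genes below 10 and the others. In the RefSeq promoters (250 bases before to 50 after the start, GRCm38.p6), 42 of the 55 genes had an entry. CG dinucleotides, the letters CG read on 1 strand, were counted, and each gene was given the highest count among its listed promoters. The median was 33.5 (15 to 49) in the 10 matched genes with a level below 10. It was 29.0 (1 to 63) in the 32 at 10 or more. A highest count can rise with the number of promoters listed for a gene, and that number was not compared between the classes. Over the 9308 matched genes of the table at 10 or more the median was 22.0. A count of letters is a description only, and it says nothing of methylation or binding at these promoters.

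The other 31 genes listed for the same pathway gave a like picture. Of the 30 in the table, 24 had 1 accession and 23 of these reached 10, from Cbx2 at 23.7 to Mll2, an H3K4 writer, at 8550. Phf19, a PRC2 accessory subunit, was the exception at 5.28. Of the 6 with more than 1 accession, 3 reached 10. These were Aebp2 (236 under 3 accessions), Cbx5 (30.1 under 3) and Ash2l (26.1 under 2). Men1, the menin subunit of the Mll complexes, and Uhrf1, a reader of H3K9 methylation, were listed at 0 under 4 accessions each, and Dpy30, a shared subunit of the H3K4 writers, had 1.2.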

How the data were processed

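Stranded libraries were made from retinal total RNA, and reads were sequenced from one end. According to the study's methods and the submitters' processing notes, the authors trimmed reads with Trimmomatic, aligned them with TopHat2 to a mouse assembly older than GRCm38, counted transcripts with HTSeq and ran DESeq2 1.22.2 under R 3.5.1 on the 2 groups. The values used here are a signal: the deposited mean over all libraries of the counts that the authors divided by size factors. The 16 columns of counts in each of 2 tables (32 columns) have names that match no sample label and were left out, so the planned test, edgeR on counts per library, was not run. Columns of the authors' own comparison (log2 fold changes, their errors, statistics and p-values) were not used.

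The text columns of the deposited count table gave the transcript accessions per symbol, and 25 genes had none. That table has 31616 rows of transcript accessions and 5 further rows that name no gene, which were left out. Accessions were matched, without version, to GENCODE M21 transcripts for lengths (coding lengths from its coding exons) and for bases held by 1 accession. Only the finding of bases held by 1 accession was tested on simulated exons, not the matching or the lengths. The minimum level was 10. Coordinates and sequences are of GRCm38. Promoters came from RefSeq. Python 3.11.15, pandas 2.3.3, numpy 2.4.6 and matplotlib 3.10.9 were used. All 55 genes are named, by target residue, and the other pathway genes and markers by counts and examples; the examples were chosen after their values were seen, and so was the split by accession number. The genes and lists were chosen with earlier results of these data known. Levels have no error and no test, and the depth of single libraries was not used.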

Additional observations from a re-analysis of the deposited data

How the results depend on the processing

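No paired analysis was possible because the columns carry no sample names. For the same reason the alternatives planned for the comparison of spaceflight with ground control (size factors of the RLE kind, DESeq2 in place of edgeR, no filter on low counts, a threshold of 0.05 on adjusted p) were not run. The median level per kb of the genes with 1 accession was 190 by the longest transcript. The planned median transcript length could not give another value, because each of these genes had 1 matched length. By coding length the median was 315, and 7 of the 10 highest genes were shared. The median of 73.8 over all such genes was taken by the longest transcript only, so 315 cannot be set against it. The median percentile of level, which leaves out the genes under each limit, was 82.6 for the 44 of the 55 genes at 10 or more, 78.9 for the 37 at 100 or more and 83.5 for the 52 above 0, each among all genes over the same limit. Among genes at 10 or more it was 86.6 for the genes with 1 accession only. Below the minimum of 10 were 11 genes, and minimums of 5 and 20 gave 8 and 12. The minimums of 5 and 20 and the restriction to 1 accession were chosen after seeing the data. Levels are means over libraries with no error, and lengths come from a newer annotation than the counts.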

Other observations

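Markers of retinal and neighbouring cell types were also set out by accession number, after the split of the histone methylation genes was seen. Of 46 markers counted under 1 accession, 40 had a mean normalized count of 10 or more, and of 8 counted under 2 or more, 2 did (25.0%, against 24.6% of all genes in that class). The 6 single-accession markers below 10 were the 4 proliferation markers, Best1 of the pigment epithelium (2.72) and Aif1 of microglia (4.08). None of them is a marker of a retinal neuron. They compare with 0 of the 37 histone methylation genes, and the difference was not tested. Nrl, the transcription factor that specifies rods, had 88.9 under 2 accessions. Pde6c, the catalytic subunit of the cone phosphodiesterase, had 0.0699 and Gngt2, the cone transducin gamma subunit, 4.02, each under 2. Rlbp1, the retinal binding protein of Müller glia, had 1.39 under 2, and Rbpms, a marker of ganglion cells, 5.53 under 3. Pecam1 of endothelium had 0.446 and Pcp2 of rod bipolar cells 8.60. Trpm1, the cation channel of ON bipolar cells, had 2866 under 2 accessions. Whether the counting set these levels was not tested.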
